A study of Saccharomyces cerevisiae with 15 samples.

Results

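Gluconeogenesis and the glyoxylate cycle allow S. cerevisiae to build sugar phosphates from ethanol, acetate, lactate and other small carbon sources. 10 genes of these routes, chosen by name, were described across 5 strains that differed in GCN5, by expression of a catalytically inactive allele or by deletion of the whole gene. They comprise the transcriptional activators CAT8 (YMR280C), ADR1 (YDR216W) and SIP4 (YJL089W), the enzyme genes PCK1 (YKR097W), FBP1 (YLR377C), MDH2 (YOL126C), ICL1 (YER065C) and MLS1 (YNL117W), and the transporter genes JEN1 (YKL217W) and SFC1 (YJR095W). All 10 were found among the 5449 S. cerevisiae genes measured, each with 1 probe set.

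As background, glucose represses these genes in yeast, and the Snf1 kinase relieves this repression when glucose runs out. Cat8p and Sip4p then bind carbon source responsive elements in the promoters of gluconeogenic and glyoxylate cycle genes, and Adr1p activates genes for the use of ethanol, glycerol and fatty acids. Gcn5p is the acetyltransferase of the SAGA complex and acetylates histone H3 at promoters. The cultures here were grown on glucose, where most of these genes are known to be held low, and only their mRNA was measured.

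The study expressed gcn5-F221A, a catalytically inactive dominant allele, in S288C cells to compete with the native Gcn5p by degrees. Of the 5 strains, 3 carried gcn5-F221A beside the native GCN5 gene, on a centromeric plasmid with a TEF promoter variant of relative strength 0.32, 0.68 or 0.95. The remaining strains carried an empty plasmid, either in wild-type cells or in the gcn5 null strain, in which a hygromycin-B resistance gene replaces GCN5. Every strain had 3 biological replicates, each on a separate array, grown in minimal medium (nitrogen base at 6.7 g/L, glucose at 20 g/L, G418 at 200 µg/mL) and harvested at an optical density of 0.4 to 0.5. Cultures were grown in biological triplicate, and the p-values measure the spread between them. A signal is a mean over the culture, so that fewer expressing cells and less RNA per cell cannot be told apart.

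Signals are on the log2 scale of RMA, a summary of the probes of each probe set. GCN5 itself read 8.92 in wild-type, 11.50, 11.90 and 13.13 at the 3 rising strengths, and 5.78 in the null strain (means, n = 3), where the native and mutant copies are read together. The array also holds S. pombe probe sets, and 95% of these read below 5.18, which is used below as the level of background. The number of arrays limited the precision to a median 95% half-width of 0.27 for a difference between strains. The 4 genes particular to alpha cells (MF(ALPHA)1, MF(ALPHA)2, SAG1 and STE3) read 7.41 to 14.54 over the 15 arrays and all 4 fell in the null strain, whereas the 6 a cell genes read 5.73 to 8.95 and STE6 and BAR1 rose there. Over 7 control genes with probe sets at each end of the transcript, the 5′ minus the 3′ signal was -3.85 ± 0.20 in wild-type, -4.00 ± 0.40, -3.34 ± 0.46 and -3.55 ± 0.35 at the 3 strengths and -3.29 ± 0.21 in the null strain (n = 3 each, ± SD). The part of either set of values in the results was not tested, except by refitting each gene with the latter as a covariate.

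In the gcn5 null strain, 7 of the 10 genes differed from wild-type at an adjusted p under 0.05 (limma, adjusted over all 5449 genes), beside 41.0% of all genes. CAT8, PCK1, SIP4, ADR1 and SFC1 rose (18.4% of all genes rose) and MLS1 and MDH2 fell (22.6% of all genes fell), while FBP1, ICL1 and JEN1 did not pass. The median log2 difference was 0.25 over the 10 genes and -0.01 over all genes. At promoter strength 0.95, CAT8, SIP4 and ADR1 rose (7.25% of all genes rose) and ICL1 fell (5.23% of all genes fell), 4 of 10 against 12.5% of all genes. Only SIP4 passed at 0.68, where 12.4% of all genes did, and that share moved with single arrays, since the 675 genes behind it became 72 without wild-type replicate 1, 86 without replicate 3 of 0.68 and 1451 without replicate 1 of 0.68. None of the 10 passed at 0.32, where 1.60% of all genes did, although 1 of them, SIP4, had an unadjusted p under 0.05 (0.00679). The 4 comparisons share the 3 wild-type arrays, so a deviation of those arrays enters each of them. Between neighbouring strengths, 3.36% of all genes passed for 0.68 against 0.32 and 4.99% for 0.95 against 0.68, and none of the 10 did, with 2 unadjusted p-values under 0.05 in each case. The weakest promoter differed from the null strain in CAT8, PCK1, ADR1 and MDH2, 4 of 10 beside 41.2% of all genes.

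**Figure D1:**
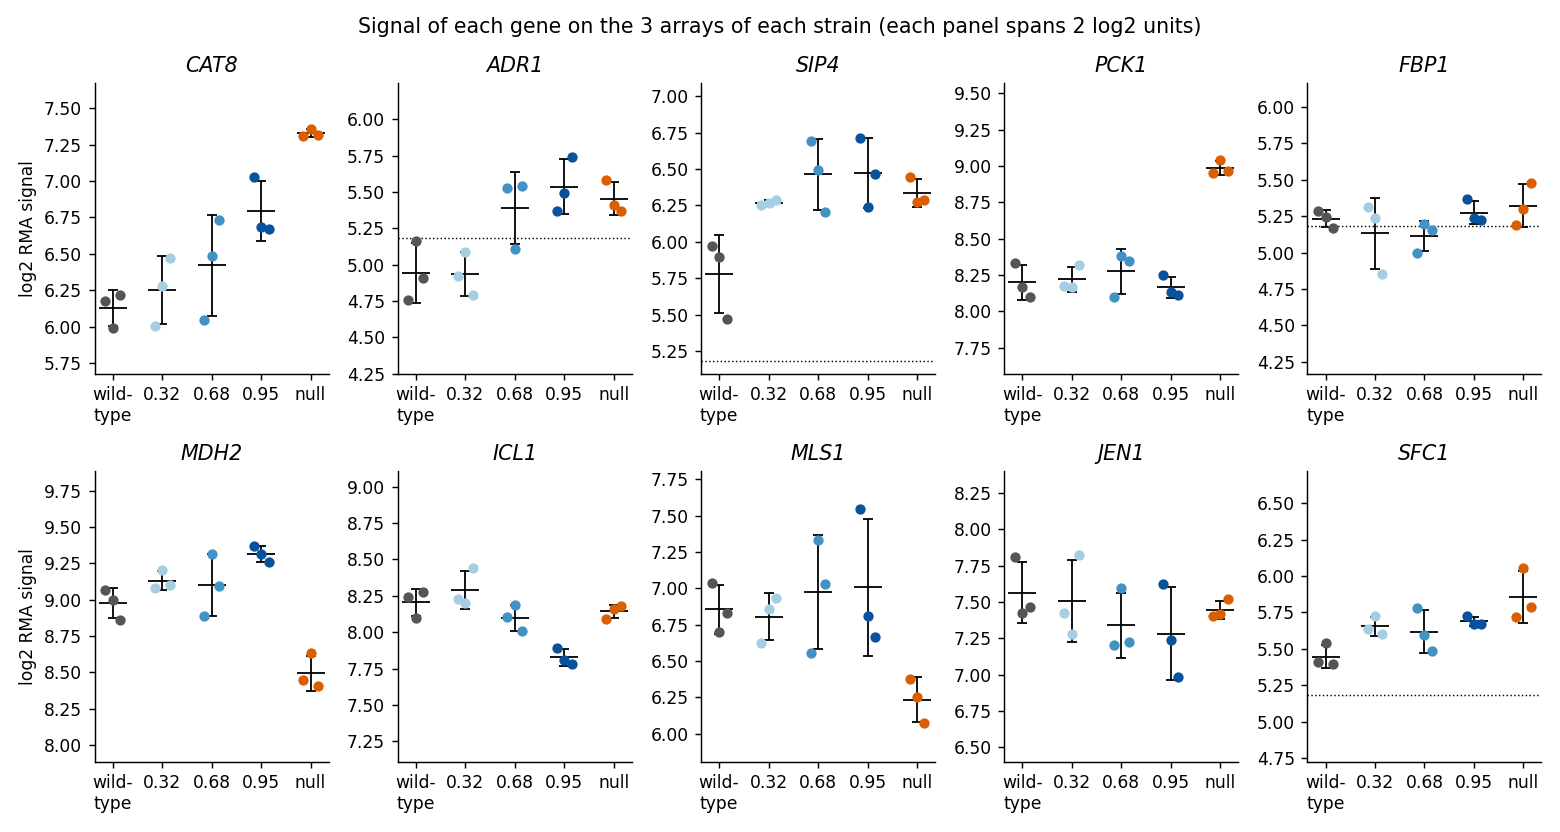
Log2 RMA signal (vertical axis, each panel spanning 2 log2 units) of the 10 genes on every array, by strain, with horizontal bars for the mean and error bars for the SD of 3 arrays, and a dotted line at 5.18, the background level set by S. pombe probe sets. The 3 null arrays stand apart for CAT8 and PCK1 (upward) and for MDH2 and MLS1 (downward), ICL1 is lowest at 0.95, and the wild-type arrays of SIP4 lie below all others.

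CAT8 encodes the zinc cluster activator at the head of gluconeogenic gene expression. Its log2 signal was 6.17, 5.99 and 6.22 on the wild-type arrays and 7.31, 7.36 and 7.32 on those of the null strain. At 0.32 it was 6.01, 6.28 and 6.47, at 0.68 it was 6.05, 6.48 and 6.73, and at 0.95 it was 7.03, 6.68 and 6.67. The null arrays lay above every other array, those at 0.95 lay above wild-type and 0.32, and 0.32 and 0.68 overlapped wild-type. The difference from wild-type was 1.20 in the null strain (SE 0.16, adjusted p = 0.000123 by limma), or 2.30-fold, and 0.67 at 0.95 (SE 0.16, adjusted p = 0.019), or 1.59-fold. The strain means followed the order wild-type, 0.32, 0.68, 0.95 and null, and of the neighbours in that order only 0.95 and null differed past the threshold (adjusted p = 0.0226). The slope over promoter strength was 0.67 log2 per unit of strength (SE 0.16, adjusted p = 0.0159 by limma). The rise in the null strain passed under all 25 alternative settings, but that at 0.95 was lost without wild-type replicate 1 (adjusted p = 0.0504), wild-type replicate 2 (0.0777) or replicate 1 of 0.95 (0.0749), and the slope without wild-type replicate 2 (0.0613) or replicate 1 of 0.95 (0.0503).

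SIP4 encodes another zinc cluster activator that binds the same promoter element as Cat8p and interacts with the Snf1 kinase complex. It read 5.97, 5.89 and 5.47 in wild-type, 6.25, 6.26 and 6.29 at 0.32, and 6.69, 6.50 and 6.21 at 0.68. The arrays at 0.95 gave 6.72, 6.24 and 6.47, and those of the null strain 6.45, 6.28 and 6.29. All 12 arrays of the other strains therefore lay above the highest wild-type array, and those 4 strains overlapped among themselves. SIP4 was 0.49 above wild-type at 0.32 (SE 0.15, adjusted p = 0.177 by limma), which did not pass, and rose by 0.69 at 0.68 (adjusted p = 0.0179), by 0.70 at 0.95 (adjusted p = 0.0102) and by 0.56 in the null strain (adjusted p = 0.0106; SE 0.15 throughout). No neighbours in the order of strain means differed past the threshold, and the slope was 0.72 log2 per unit of strength (SE 0.15, adjusted p = 0.00782). Wild-type replicate 3 was the lowest of all 15 arrays, and without it the differences were 0.53 at 0.68 (adjusted p = 0.0525) and 0.41 in the null strain (adjusted p = 0.0505). With only the arrays compared in the fit, SIP4 did not pass at 0.68 either (adjusted p = 0.156).

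ADR1 encodes the zinc finger activator of ADH2 and of peroxisomal genes. It read 4.76, 5.16 and 4.91 in wild-type and 4.92, 5.09 and 4.79 at 0.32, all 6 below the background level of 5.18. At 0.68 it read 5.53, 5.11 and 5.54, at 0.95 it read 5.37, 5.50 and 5.74, and in the null strain 5.58, 5.41 and 5.37. The arrays at 0.95 and of the null strain lay above all wild-type arrays, and replicate 2 at 0.68 fell among them. ADR1 rose by 0.59 at 0.95 (SE 0.14, adjusted p = 0.018 by limma) and by 0.51 in the null strain (SE 0.14, adjusted p = 0.0127), with 0.45 at 0.68 (adjusted p = 0.0585) and -0.01 at 0.32 (adjusted p = 0.988) not passing. Since wild-type was not above background, the strain means were set against the background level of 5.18, which gave 1.28-fold at 0.95 and 1.21-fold in the null strain. These point estimates make no allowance for the spread between arrays, so smaller rises are possible. The fitted slope was 0.70 log2 per unit of strength (SE 0.14, adjusted p = 0.00649), but as its wild-type and 0.32 signals were not above background, its size is not a measured fold. The rise at 0.95 was lost without wild-type replicate 1 (adjusted p = 0.0816), wild-type replicate 3 (0.057) or replicate 3 of 0.95 (0.0784). That in the null strain was lost without wild-type replicate 1 (0.06), null replicate 1 (0.0553) or with the 5′ minus 3′ signal as a covariate, where the difference became 0.25 (adjusted p = 0.055).

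PCK1 encodes phosphoenolpyruvate carboxykinase, which makes phosphoenolpyruvate from oxaloacetate and commits carbon to gluconeogenesis. Its signal was 8.33, 8.17 and 8.10 in wild-type and 8.95, 9.04 and 8.96 in the null strain. With gcn5-F221A it was 8.18, 8.17 and 8.32 at 0.32, 8.10, 8.38 and 8.35 at 0.68, and 8.25, 8.13 and 8.12 at 0.95. The null arrays lay above all 12 others, and the other strains overlapped throughout. PCK1 rose by 0.78 in the null strain (SE 0.09, adjusted p = 3.8e-05 by limma), or 1.72-fold. At 0.95 the difference from wild-type was -0.03 with a 95% interval from -0.23 to 0.16 (adjusted p = 0.869), and the slope was -0.01 (95% interval -0.20 to 0.18). The null strain differed from its nearest neighbour, 0.68, by 0.71 (adjusted p = 0.000152; 16.2% of all genes passed between these strains), and the 4 remaining strains spanned 8.17 to 8.28 in their means with no neighbours past the threshold. The rise in the null strain passed in all 25 alternative settings, among them each fit without a wild-type or null array, and ranged from 0.73 to 0.90.

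FBP1 encodes fructose-1,6-bisphosphatase, which removes a phosphate from fructose-1,6-bisphosphate near the end of gluconeogenesis and whose protein is degraded when glucose is added. It read 5.29, 5.24 and 5.17 in wild-type, 5.31, 5.23 and 4.85 at 0.32, and 5.00, 5.19 and 5.15 at 0.68. The arrays at 0.95 gave 5.37, 5.23 and 5.22, and the null arrays 5.19, 5.30 and 5.48. The arrays at 0.95 lay above those at 0.68, all other pairs of strains overlapped, and 4 of the 15 arrays were below 5.18. The difference was 0.09 in the null strain (95% interval -0.16 to 0.34, adjusted p = 0.577 by limma) and 0.04 at 0.95 (95% interval -0.21 to 0.29, adjusted p = 0.876). At such signals a change in a transcript near background may not be seen.

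MDH2 encodes the cytosolic malate dehydrogenase, which supplies oxaloacetate to Pck1p and takes part in the glyoxylate cycle. Its log2 signal was 9.07, 9.00 and 8.86 in wild-type and 8.45, 8.63 and 8.41 in the null strain. At 0.32 it was 9.08, 9.21 and 9.10, at 0.68 it was 8.89, 9.32 and 9.09, and at 0.95 it was 9.37, 9.31 and 9.26. The null arrays were the lowest 3 of the 15, and the arrays at 0.95 and at 0.32 lay above all wild-type arrays. MDH2 fell by 0.48 in the null strain (SE 0.10, adjusted p = 0.00272 by limma), to 0.72 times wild-type. At 0.95 it was 0.34 above wild-type (SE 0.10, adjusted p = 0.0521), just outside the threshold, and the slope was 0.30 log2 per unit of strength (SE 0.10, adjusted p = 0.0666). The difference at 0.95 passed in 6 of the 25 alternative settings, among them the fit with only the arrays compared (adjusted p = 0.0296), and the fall in the null strain passed in all of them.

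**Figure D2:**
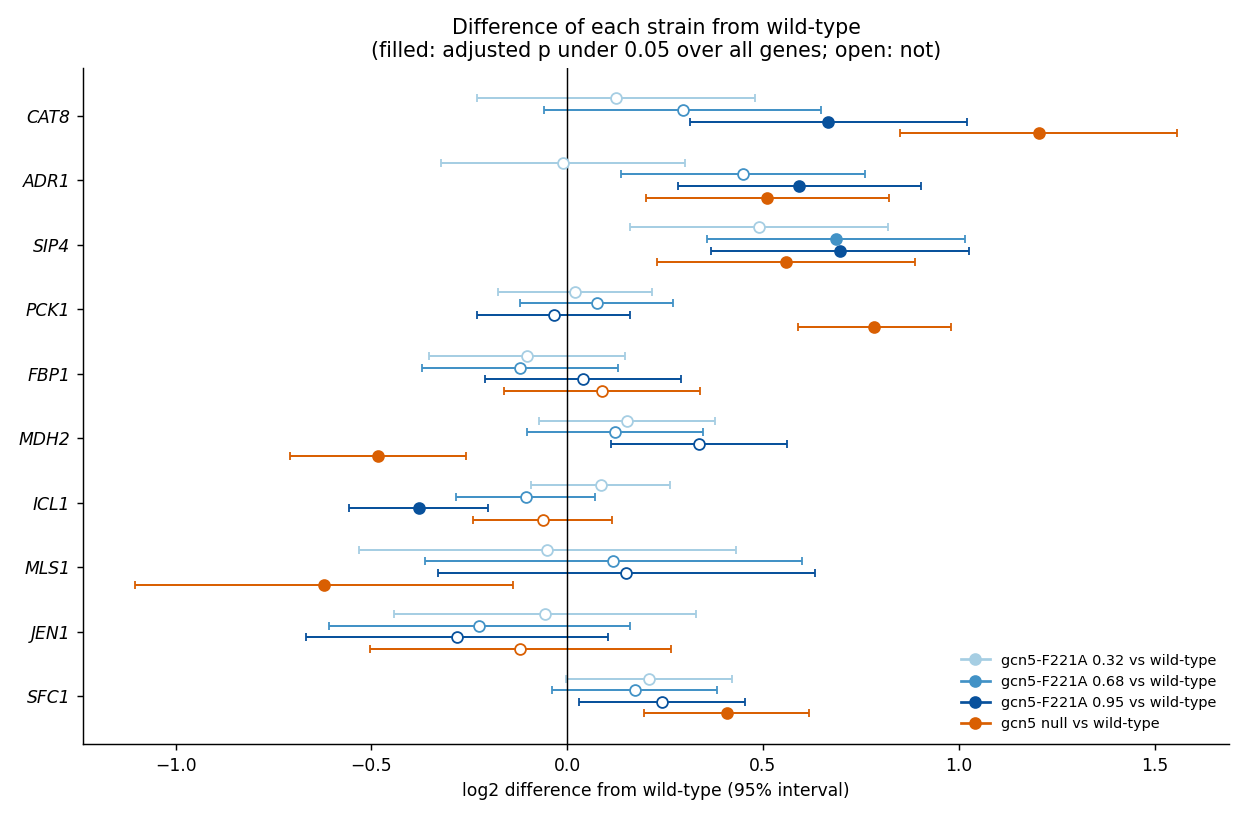
Log2 difference of each strain from wild-type (horizontal axis) for the 10 genes, with 95% intervals from limma; filled points passed an adjusted p of 0.05 over all 5449 genes and open points did not. CAT8 reached 1.20 in the null strain, PCK1 lay at 0.78 there and between -0.03 and 0.08 at the 3 strengths, and MDH2 lay at -0.48 in the null strain and at 0.34 at 0.95.

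ICL1 encodes isocitrate lyase, which splits isocitrate into succinate and glyoxylate and opens the glyoxylate cycle. It read 8.24, 8.10 and 8.28 in wild-type, 8.23, 8.20 and 8.44 at 0.32, and 8.10, 8.19 and 8.01 at 0.68. The arrays at 0.95 gave 7.89, 7.81 and 7.78, and those of the null strain 8.09, 8.16 and 8.18. All 3 arrays at 0.95 lay below the other 12, while the null strain overlapped wild-type and 0.68. ICL1 fell by 0.38 at 0.95 (SE 0.08, adjusted p = 0.00963 by limma), to 0.77 times wild-type, against -0.06 in the null strain (95% interval -0.24 to 0.11, adjusted p = 0.58). It was also the only one of the 10 genes to differ between 0.95 and 0.32, by -0.46 (SE 0.08, adjusted p = 0.0136), a comparison in which 1.91% of all genes passed. That call was lost with only the arrays compared (adjusted p = 0.125) and without replicate 2 (0.0796) or 3 (0.0675) of 0.95. The slope was -0.41 log2 per unit of strength (SE 0.08, adjusted p = 0.00588), and it and the fall at 0.95 passed in all 25 alternative settings.

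MLS1 encodes malate synthase, which joins glyoxylate and acetyl-CoA to malate in the next step of the cycle. It read 7.04, 6.70 and 6.83 in wild-type and 6.38, 6.25 and 6.07 in the null strain, with no overlap. With gcn5-F221A it read 6.62, 6.86 and 6.94 at 0.32, 6.56, 7.33 and 7.03 at 0.68, and 7.54, 6.81 and 6.66 at 0.95. The replicates at 0.68 and 0.95 were the widest apart of any of the 10 genes, with SDs of 0.39 and 0.47. MLS1 fell by 0.62 in the null strain (SE 0.22, adjusted p = 0.0399 by limma) and was 0.15 above wild-type at 0.95 (SE 0.22, adjusted p = 0.735). The fall was lost when any single wild-type or null array was left out (adjusted p = 0.053 to 0.133), with all probe sets tested (0.0578) and with the replicate number as a block (0.0617). With the 5′ minus 3′ signal as a covariate the difference was -0.32 (adjusted p = 0.243). DAL7, a close paralog that also encodes a malate synthase, fell by 0.59 in the null strain (SE 0.12, adjusted p = 0.00193) and by 0.63 at 0.95 (SE 0.12, adjusted p = 0.0052). Whether DAL7 transcripts reach the MLS1 probe set was not tested.

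JEN1 encodes the plasma membrane permease for lactate and pyruvate. It read 7.81, 7.42 and 7.47 in wild-type, 7.42, 7.28 and 7.82 at 0.32, and 7.20, 7.60 and 7.22 at 0.68. The arrays at 0.95 gave 7.62, 7.24 and 6.98, and the null arrays 7.40, 7.41 and 7.52. All strains overlapped, with the strain means falling from 7.56 in wild-type to 7.28 at 0.95 without any neighbours differing past the threshold. The difference was -0.28 at 0.95 (95% interval -0.67 to 0.10, adjusted p = 0.348 by limma) and -0.12 in the null strain (95% interval -0.50 to 0.27, adjusted p = 0.631).

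SFC1 encodes the mitochondrial carrier that exchanges succinate from the glyoxylate cycle for fumarate. Its signal was 5.41, 5.54 and 5.39 in wild-type, close above background, and 5.72, 6.06 and 5.79 in the null strain. At 0.32 it was 5.63, 5.73 and 5.60, at 0.68 it was 5.78, 5.59 and 5.48, and at 0.95 it was 5.73, 5.67 and 5.67. All arrays at 0.32, at 0.95 and in the null strain lay above wild-type, and replicate 3 at 0.68 fell among the wild-type arrays. SFC1 rose by 0.41 in the null strain (SE 0.10, adjusted p = 0.0051 by limma), or 1.33-fold, in all 25 alternative settings. The differences of 0.21 at 0.32 (adjusted p = 0.447), 0.17 at 0.68 (adjusted p = 0.26) and 0.24 at 0.95 (adjusted p = 0.129) did not pass.

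Over the slope as a whole, 4 of the 10 genes passed, with CAT8, ADR1 and SIP4 rising and ICL1 falling, beside 15.7% of all genes (8.39% rising and 7.27% falling). The 3 called upward were the 3 activators, and none of the 7 enzyme and transporter genes rose with promoter strength at the adjusted threshold, with unadjusted p-values of 0.0126 for MDH2 and 0.0449 for SFC1. The slope includes wild-type at strength 0. Between 0.95 and 0.32 none of the 3 activators passed, with 0.54 for CAT8 (adjusted p = 0.12 by limma), 0.60 for ADR1 (0.0525) and 0.21 for SIP4 (0.5). The MDH2 slope passed in 3 of the 25 alternative settings, with array weights (adjusted p = 0.00412), with the 5′ minus 3′ covariate (0.0201) and without replicate 1 of 0.68 (0.0149). At the weakest promoter, the arrays of MDH2, SIP4 and SFC1 lay wholly above wild-type at 0.32 and none of the 10 lay wholly below, where 9.76% of all genes lay above and 7.21% below.

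The effect of the strongest promoter was then compared with that of the deletion, by testing 0.95 against the null strain directly. Of the 10 genes, 5 differed, 2 higher and 3 lower at 0.95, beside 33.1% of all genes (19.5% higher and 13.6% lower). MDH2 was 0.82 higher at 0.95 (SE 0.10, adjusted p = 9.65e-05 by limma) and MLS1 0.77 higher (SE 0.22, adjusted p = 0.0173). PCK1 was lower by a log2 difference of -0.82 (SE 0.09, adjusted p = 3.18e-05), CAT8 by -0.54 (SE 0.16, adjusted p = 0.0226) and ICL1 by -0.32 (SE 0.08, adjusted p = 0.00969). CAT8 thus rose in both strains but less at 0.95, PCK1, MDH2 and MLS1 changed in the null strain and did not pass at 0.95, and ICL1 did the reverse. ADR1 differed by 0.08 (95% interval -0.23 to 0.39), SIP4 by 0.14 (-0.19 to 0.47) and SFC1 by -0.17 (-0.38 to 0.05), none of which passed. The CAT8 difference was lost without replicate 2 or 3 of 0.95 or any null array (adjusted p = 0.054 to 0.0795). That of MLS1 was lost without replicate 1 of 0.95, where it was 0.50 (adjusted p = 0.0728), or without null replicate 3 (adjusted p = 0.0642).

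**Figure D3:**
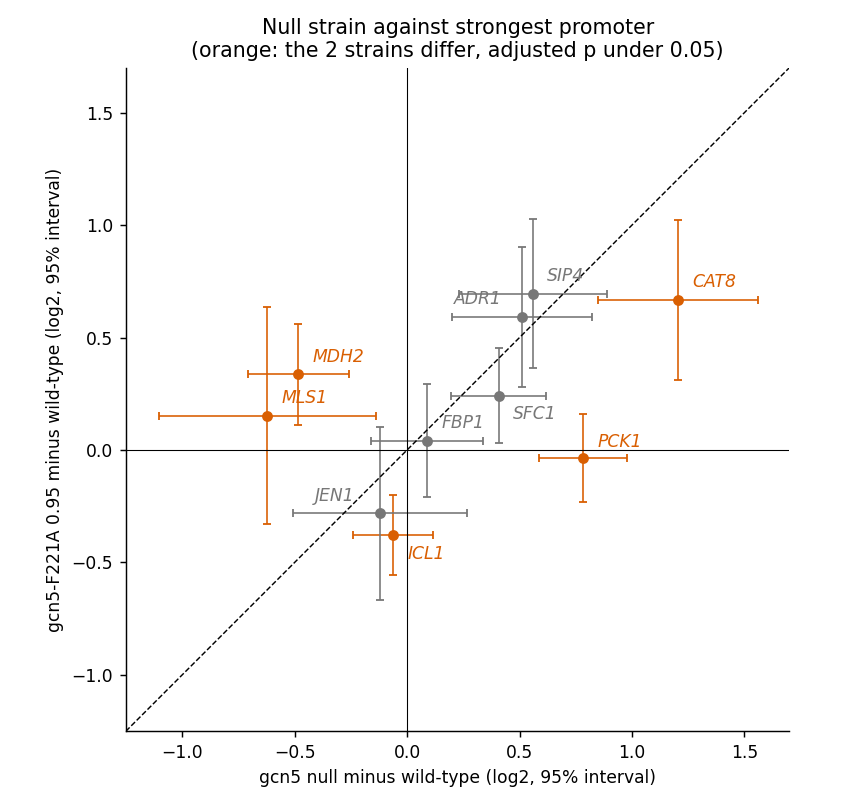
Log2 difference from wild-type in the gcn5 null strain (horizontal axis) and at promoter strength 0.95 (vertical axis) for the 10 genes, with 95% intervals and a dashed line of equal differences; orange genes differed between these strains at an adjusted p under 0.05, and all points share the 3 wild-type arrays. PCK1 lies at 0.78 and -0.03, MDH2 at -0.48 and 0.34, and SIP4 and ADR1 lie close to the line.

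The partners of these enzymes were described by lists of related genes, whose counts stand beside 18.4% of all genes higher and 22.6% lower in the null strain (41.0% in either direction), and 7.25% higher and 5.23% lower at 0.95 (12.5%). No list was tested as a set. Of 13 measured paralogs and glyoxylate cycle partners, 5 rose and 2 fell in the null strain (7 of 13 beside 41.0%, median 0.13), and 2 rose and 1 fell at 0.95 (3 of 13 beside 12.5%, median 0.14). ACO1, the aconitase that makes isocitrate, rose by 0.95 in the null strain (adjusted p = 3.31e-05 by limma) and by 0.55 at 0.95 (adjusted p = 0.00525). MDH1, the mitochondrial malate dehydrogenase, rose by 0.70 in the null strain (adjusted p = 0.00397), where MDH2 fell. FBP26, a fructose-2,6-bisphosphatase, rose by 0.998 there (adjusted p = 0.00143). PYC1, a pyruvate carboxylase that feeds oxaloacetate into gluconeogenesis, rose by 0.53 at 0.95 (adjusted p = 0.000786). The 2 that fell in the null strain were DAL7, described above, and CIT2, by 0.49 (adjusted p = 0.00329). At 0.95 DAL7 was the 1 that fell, and CIT2 was 0.14 above wild-type (adjusted p = 0.439), which did not pass.

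Of 16 genes for ethanol and acetate use, 5 rose and 2 fell in the null strain and 2 rose at 0.95, 7 and 2 of 16 beside 41.0% and 12.5% of all genes. YAT1, a carnitine acetyltransferase, rose by 1.01 in the null strain (adjusted p = 7.68e-05 by limma), ACH1, which transfers CoA to acetate, by 0.80 (adjusted p = 0.00019), and ATO3, a putative ammonium transporter, fell by 0.81 (adjusted p = 0.00734). The acetaldehyde dehydrogenases ALD6 and ALD4 rose at 0.95, by 1.62 (adjusted p = 0.00364) and 1.32 (adjusted p = 0.000475). ALD6 did not rise steadily with strength, as its difference at 0.68 was -0.46 (SE 0.29, adjusted p = 0.309), which did not pass. ADH2, the alcohol dehydrogenase that Adr1p activates, fell in the null strain, by 0.51 (adjusted p = 0.0135). At 0.95 ADH2 was 0.38 below wild-type (adjusted p = 0.112), which did not pass. Of 10 genes for glycerol and lactate use, 5 rose and 2 fell in the null strain and 3 rose and 2 fell at 0.95, 7 and 5 of 10 beside the same shares. GUT2, the mitochondrial glycerol-3-phosphate dehydrogenase, rose by 0.72 in the null strain (adjusted p = 0.00565) and by 1.28 at 0.95 (adjusted p = 0.000701). Of the external NADH dehydrogenases, NDE1 rose by 0.83 in the null strain (adjusted p = 0.000589) and NDE2 by 1.52 at 0.95 (adjusted p = 0.0161). The 2 that fell in the null strain were DLD1, by 0.50 (adjusted p = 0.000558), and DLD2, by 0.35 (adjusted p = 0.00317). At 0.95, REG2 fell by 0.55 (adjusted p = 0.017) and DLD2 by 0.40 (adjusted p = 0.00533). In the null strain REG2 rose instead, by 0.39 (adjusted p = 0.0304). Of 16 genes of peroxisomal beta-oxidation, 2 rose and 3 fell in the null strain and 2 rose at 0.95, 5 and 2 of 16 beside 41.0% and 12.5%. PXA2, a subunit of the fatty acid importer, rose by 0.84 in the null strain (adjusted p = 0.00108) and by 0.58 at 0.95 (adjusted p = 0.0323). POT1 also rose at 0.95, by 1.13 (adjusted p = 0.0321), from a wild-type mean of 4.87 that was below background. The 3 that fell in the null strain were ANT1, by 0.76 (adjusted p = 0.000693), FAA1, by 0.42 (adjusted p = 0.0212), and TES1, by 0.36 (adjusted p = 0.0259).

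**Figure D4:**
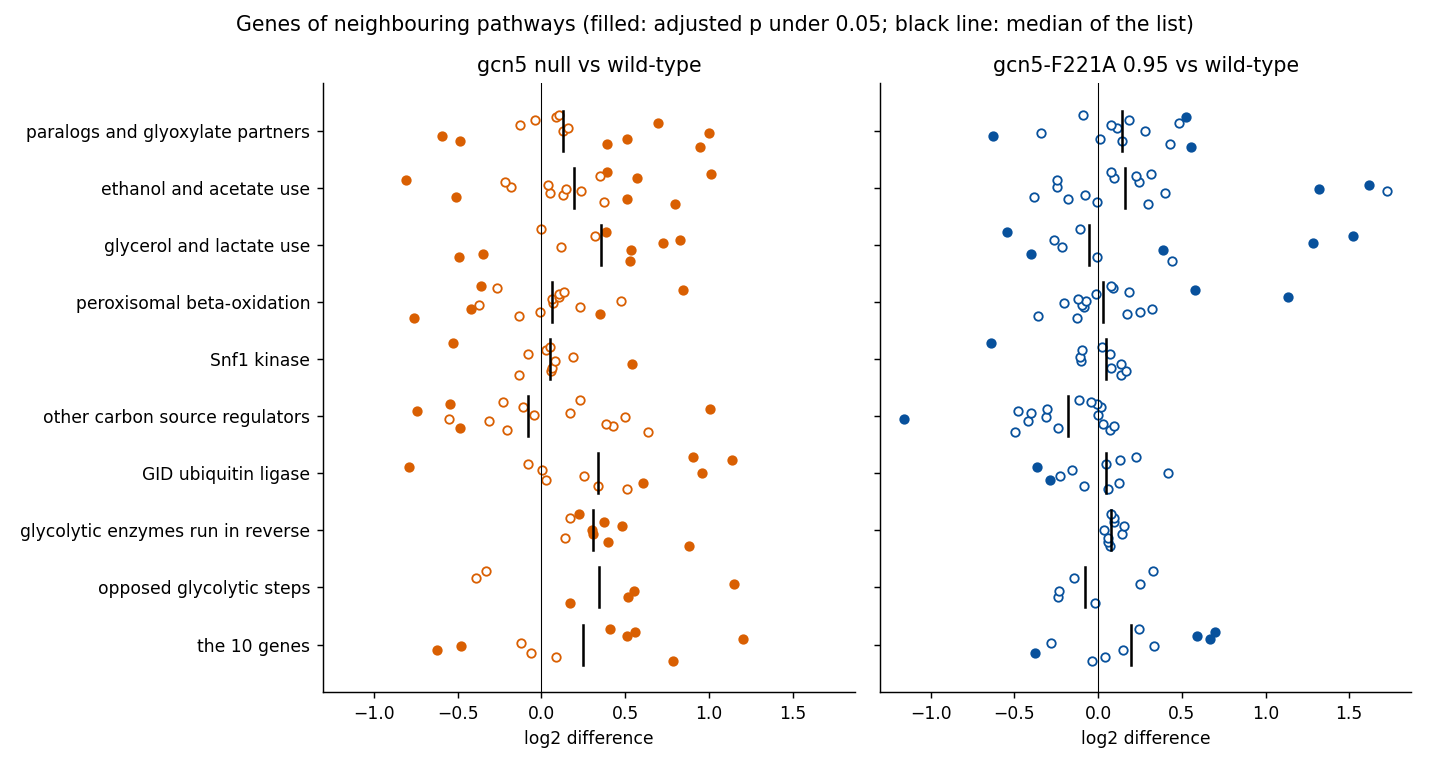
Log2 differences from wild-type (horizontal axis) of the genes of 9 related lists and of the 10 genes, in the null strain (left) and at promoter strength 0.95 (right), with filled points for an adjusted p under 0.05 and a black line at each median. In the null strain 7 of 9 glycolytic enzymes that also run in reverse rose, beside 18.4% of all genes, and at 0.95 their differences lay between 0.04 and 0.15.

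Upstream of the activators, 2 of 10 genes of the Snf1 kinase changed in the null strain and 1 at 0.95, beside 41.0% and 12.5% of all genes. REG1, a regulatory subunit of the phosphatase that opposes Snf1p, rose by 0.54 in the null strain (adjusted p = 0.0357 by limma), and TOS3, a kinase that activates Snf1p, fell by 0.53 there (adjusted p = 0.0195) and by 0.64 at 0.95 (adjusted p = 0.0224). SNF1 itself was 0.03 above wild-type in the null strain and did not pass. Of 16 other carbon source regulators, 1 rose and 3 fell in the null strain and 1 fell at 0.95, 4 and 1 of 16 beside 41.0% and 12.5%. NRG1, a glucose repressor, rose by 1.01 in the null strain (adjusted p = 0.000125). MIG3, a repressor related to Mig1p, fell by 0.74 (adjusted p = 0.00621), and the gluconeogenic regulators RDS2 and ERT1 fell by 0.55 (adjusted p = 0.00042) and 0.49 (adjusted p = 0.000856). HAP4, the activating subunit of the respiratory gene regulator, fell by 1.16 at 0.95 (adjusted p = 0.0143).

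The GID ubiquitin ligase marks Fbp1p, Pck1p, Mdh2p and Icl1p for degradation after glucose is added. Of 11 genes for it and for related turnover, 4 rose and 1 fell in the null strain and 2 fell at 0.95, 5 and 2 of 11 beside 41.0% and 12.5% of all genes. VID28 and VID30, subunits of the ligase, rose by 1.14 (adjusted p = 0.00238 by limma) and 0.91 (adjusted p = 0.00604) in the null strain, and UBC8, its ubiquitin-conjugating enzyme, by 0.96 (adjusted p = 0.00348). VID22 fell by 0.79 in the null strain (adjusted p = 1.96e-05) and by 0.36 at 0.95 (adjusted p = 0.0136). Of 9 measured glycolytic enzymes that also work in gluconeogenesis, 7 rose in the null strain, beside 18.4% of all genes, such as ENO1, an enolase, by 0.88 (adjusted p = 0.000314) and PGK1, phosphoglycerate kinase, by 0.48 (adjusted p = 0.000461). TDH1, PGK1 and ENO1 also rose at 0.68, where 12.4% of all genes passed in either direction, a share that moved with single arrays. At 0.95 the 9 differences lay between 0.04 and 0.15 and did not pass. Of 6 genes of the opposed, glycolytic steps, 4 rose in the null strain, beside 18.4% of all genes, with PFK26, which makes fructose-2,6-bisphosphate, at 1.15 (adjusted p = 0.000337) and PFK2, a phosphofructokinase subunit, at 0.55 (adjusted p = 0.000623). The medians of these last 2 lists were 0.31 and 0.34 in the null strain and 0.08 and -0.08 at 0.95.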

How the data were processed

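Whole cell RNA was hybridized to Affymetrix Yeast 2.0 arrays. The deposited values are log2 signals that the authors made by RMA (version not given in the sources used here), with background correction, quantile normalization and a summary per probe set. They were used as deposited. Probe sets were joined to S. cerevisiae genes through the platform's gene table, and the probe set with the highest mean was kept for each gene (47 genes had several). Probe sets of the S. pombe genes pck1, fbp1 and sfc1 were not used for their namesakes. TDH2 was not analysed here.

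A mean per strain was fitted to all 15 arrays in R 4.3.3 with limma 3.58.1 (10 residual degrees of freedom before moderation), tests were two-sided, and Benjamini and Hochberg's adjustment covered 5449 genes. The slope is a linear contrast over strengths 0, 0.32, 0.68 and 0.95, in log2 per unit of the wild-type TEF promoter. The script was tested on simulated data. For ADR1, the folds set against background replace a strain's dim signals by 5.18 and use strain means only, without an interval.

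The 10 genes and the lists of related genes were chosen with earlier results of these data known. Selected for naming were the 10 genes, GCN5, up to 4 called genes of each list with the largest differences in the null strain and at 0.95, and the 3 genes closest in pattern to each called gene. The text names only part of the list genes and pattern neighbours so selected, and no rule set which. SNF1, ADH2, CIT2 and DLD1 were named after their values were seen. Replicate numbers were not treated as pairs: 5 of 15 arrays correlated best with their own number, and the mean correlation was -0.07 within a number and 0.04 between numbers. No arrays held identical values. Alternatives were 15 fits that each left out 1 array, 9 others chosen at the outset and 1 added after the data were seen, the 5′ minus 3′ covariate. Leaving out an array of a strain outside a comparison keeps its log2 difference and alters only the shared spread and the adjustment. Averaging a gene's probe sets keeps the values of the 10 genes, each of which has 1 probe set. Plots used matplotlib 3.10.9.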

Additional observations from a re-analysis of the deposited data

Results flagged for a closer look

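Of the 10 genes, 5 were marked because the effect of gcn5-F221A at 0.95 and the effect of the deletion differed by a direct test (limma, adjusted over 5449 genes). The log2 difference of the effects was 0.82 for MDH2 (adjusted p = 9.65e-05), with all 3 arrays at 0.95 above all 3 null arrays. For MLS1 it was 0.77 (adjusted p = 0.0173), again without overlap, with replicate 1 of 0.95 at 7.54 above the others. For PCK1 it was -0.82 (adjusted p = 3.18e-05), for CAT8 -0.54 (adjusted p = 0.0226) and for ICL1 -0.32 (adjusted p = 0.00969), in each case with all arrays at 0.95 below all null arrays. The 5′ minus 3′ control signal was -3.55 at 0.95 and -3.29 in the null strain, and with it as a covariate these 5 genes and JEN1 passed.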

How the results depend on the processing

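Over the 10 genes, 7 comparisons and 25 alternatives, 1694 of 1750 values kept their direction (or were never called) and their side of the threshold, 33 lost it, 23 gained it and 0 reversed a called value. Part of these fits left out arrays of strains outside the comparison and could not move the difference itself. The number called at 0.68 was 2 with array weights and 0 with only the arrays compared, and between 0.95 and 0.32 it was 3 and 0. Leaving out 1 array gave 5 to 7 genes in the null strain, 0 at 0.32, 0 to 2 at 0.68, 2 to 5 at 0.95, 3 to 5 for 0.95 against null, 0 to 3 for 0.95 against 0.32 and 3 to 5 for the slope. The low ends came without wild-type replicate 3 at 0.68 (0), wild-type replicate 1 at 0.95 (2, ICL1 and SIP4), null replicate 3 for 0.95 against null (3) and replicate 2 or 3 of 0.95 for 0.95 against 0.32 (0). The high ends came without replicate 1 or 2 of 0.68 at 0.68 (2), and without replicate 1 of 0.68 for 0.95 against 0.32 (3), where leaving out 0.32 replicate 2, 0.68 replicate 2 or 0.68 replicate 3 gave 2. With the replicate number as a block, although the numbers did not pair the arrays, 6 genes passed in the null strain (MLS1 lost), 5 at 0.95 (MDH2 gained), 0 at 0.32, 1 at 0.68, 5 for 0.95 against null, 1 for 0.95 against 0.32 and 4 for the slope. The number of all genes called moved more: from 87 at 0.32 to 187 with array weights and 6 with only the arrays compared, from 675 at 0.68 to 1235 and 4, and from 680 at 0.95 to 2281 with array weights and 380 without wild-type replicate 1. JEN1, not called otherwise, passed at 0.95 with array weights (-0.25, adjusted p = 0.0412 by limma) and between 0.95 and null with array weights (-0.20, adjusted p = 0.048) and with the covariate (-0.33, adjusted p = 0.0092). The causes were not tested. Signals of ADR1 and FBP1 near background limit what can be seen of these genes.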

Other observations

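The genes with the most similar patterns were found by the root mean square distance between their 4 log2 differences from wild-type and those of each called gene, among 5216 genes above background. These differences share the wild-type arrays, and the distances are descriptive. For CAT8 the nearest were IDH1 (0.11), IDH2 (0.12) and SDH1 (0.14), and IDH1 differed from wild-type by -0.02, 0.43 and 0.64 at the 3 strengths and by 1.29 in the null strain. GAL2 lay nearest to PCK1 (0.05), with -0.02, 0.09 and -0.07 at the 3 strengths and 0.71 in the null strain. TBS1 (0.05) and CTA1 (0.06) were nearest to ICL1, AMN1 (0.03) to MDH2, YER158C (0.04) to MLS1, YPR172W (0.05) to ADR1, CUZ1 (0.07) to SIP4 and SEC9 (0.02) to SFC1. Within the 10 genes, ICL1 and JEN1 were the closest pair (0.11), followed by MLS1 and MDH2 (0.15).

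At strength 0.95, replicate 1 lay above the strain mean in 9 of the 10 genes, and replicates 2 and 3 in 0 and 1. The share of all genes above the mean was not counted. Median deviations of these replicates were 0.088, -0.040 and -0.052 over the 10 genes and 0.016, -0.009 and -0.010 over all genes. The deviations of a gene cancel within a strain, so the 3 counts depend on each other. The mean SD of the 10 genes over the 3 arrays was lowest in the null strain (0.099) and highest at 0.68 (0.216), beside 0.096 and 0.229 over all genes.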
